A study of Mus musculus with 24 samples.

Results

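The cytosolic ribosomal protein genes are the genes for the protein subunits of the ribosome that works in the cytoplasm. They were taken as the rows whose symbol is Rpl or Rps with a number, optionally ending in a, x or l, together with Rplp0, Rplp1, Rplp2 and Rpsa, which gave 83 of 55025 gene rows. By the GENCODE M21 annotation 80 of them are protein-coding, Rpl6l and Rpl32l are processed pseudogenes and Rps4l is a transcribed processed pseudogene. The rule used no measured value. RNA-seq counts came from 24 libraries of sorted cells in 8 groups of 3: tumor and spleen, each sorted for CD8 or CD4 together with the leukocyte marker CD45, from animals given LCL161 or vehicle. LCL161, a small-molecule SMAC mimetic that targets the inhibitor of apoptosis proteins cIAP1 and cIAP2, was given orally at 75 mg/kg, first on day 4 and then at 3-day intervals, and organs were taken on day 12, after 3 doses. All groups, vehicle included, were TCR alpha-/- mice with M8 pancreatic organoid tumors placed in the pancreas. Every value thus describes animals labelled as T cell receptor alpha knockouts, and no wild-type group was analysed here. The ages of the mice are not given in the labels, and nothing in them says whether the 3 libraries of a group came from different mice. The p-values therefore cover only the spread between these libraries, which may be technical.

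Each ribosome is built from a large and a small subunit, whose proteins are made in matched amounts and assembled with ribosomal RNA in the nucleolus. Mammalian ribosomal protein mRNAs typically begin with a C followed by a run of pyrimidines, the 5' terminal oligopyrimidine tract, through which LARP1 and the kinase mTOR control their translation. T cells enlarge this machinery when they leave rest and grow. An mRNA level says nothing about how much of that mRNA is translated.

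The start sites of some members called in the comparisons are shown, because this tract is the best known shared feature of the family. Some meet the rule for the tract given below and some do not. In RefSeq promoter sequences (GRCm38.p6), 61 of the 83 members were matched. A C followed by at least 4 bases that are each C or T, read on the transcribed strand and beginning within 10 bases of the listed start, was present in 39 of them (63.93%), against 34.33% of 26964 other genes. The next lines give 30 bases each, 20 before the start and 10 from it, written 5' to 3' with the tract in capitals.
Rps6 (chr4:86857358-86857387, minus strand): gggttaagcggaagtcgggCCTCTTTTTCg
Rps18 (chr17:33955656-33955685, minus strand): acttatacgtcacttccgCTCTCTCTTCCa
Rpl14 (chr9:120571497-120571526, plus strand): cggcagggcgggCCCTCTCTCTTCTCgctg
Rpl38 (chr11:114668560-114668589, plus strand): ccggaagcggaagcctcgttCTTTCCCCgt
Rpl10 (chrX:74270796-74270825, plus strand): ctatggttgttacagtggaagataggccgc
Rpl5 (chr5:107900508-107900537, plus strand): ctctttctcacgtcgcttgcgtgctggtgg
Rpl4 (chr9:64173367-64173396, plus strand): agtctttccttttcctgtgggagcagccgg
Rpl24 (chr16:55966255-55966284, plus strand): taggaagaaagctgttgctaggaaacagac
Rps28 (chr17:33824553-33824582, minus strand): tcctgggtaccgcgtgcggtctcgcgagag
The windows of Rpl10, Rpl5, Rpl4, Rpl24 and Rps28 have no capitals. This says only that no such run begins within 10 bases of the start that RefSeq lists. The windows of Rpl4 and Rpl5 hold a run of this kind that begins further before the start. These windows were chosen after the values were seen, so how they divide says nothing about the family. The listed start equalled a RefSeq gene boundary for 51 of the 61 members. The ETS-type core CCGGAAG, or its reverse complement CTTCCGG, was found on either strand of the 300 bases from 250 before to 50 after the start in 25 members (40.98%), against 9.858% of other genes. CACGTG was found in 6 members (9.836%), against 8.089% of other genes, and TATAAA in the 50 bases before the start in 0 members, against 3.156%. Those other genes include non-coding ones. Over 17430 other coding genes the shares were 34.84% for the tract, 12.85% for the ETS-type core, 8.91% for CACGTG and 3.827% for TATAAA.

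Library totals ran from 15455728 to 25145426 counts. Levels are given as CPM, read counts scaled to a common library size. Log2 fold changes stand with their standard error (SE), and each adjusted p is from the quasi-likelihood test of edgeR with Benjamini-Hochberg adjustment over all 20174 genes, with 3 libraries in every group. Which part of Trac is deleted is not stated in the labels, so its level is no check of the genotype. Trac averaged 20.7 to 25.6 CPM in the tumor CD8 groups and 10.3 to 17.8 CPM in the spleen CD8 groups, against 338 to 581 CPM in the tumor CD4 groups and 328 to 731 CPM in the spleen CD4 groups. Cd8a averaged 599 to 1105 CPM in the CD8 groups and at most 2.12 CPM in the CD4 groups, and Cd4 averaged at most 21.1 CPM in the CD8 groups and at least 896 CPM in the CD4 groups. Both sort markers followed the labels. The CD8 libraries also held all 5 gamma delta T cell markers, summed to 2722 to 3281 CPM in tumor vehicle and 1215 to 1287 CPM in spleen vehicle. The 7 conventional dendritic cell markers summed to 1720.0 to 1910.0 CPM in spleen CD8 vehicle, where all 7 were detected. In such bulk samples, fewer cells of a type and less RNA per cell cannot be told apart.

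Per kilobase of exon, averaged over all libraries, the members spanned a wide range of levels. Rplp1, an acidic stalk protein that recruits elongation factors, led with 899.6 CPM per kilobase, followed by Rpl32 with 839 CPM per kilobase and Rplp0, the base of the same stalk, with 807 CPM per kilobase. Rpl36, Rps27, Rpl4, Rps29 and Rpl19 were also among the 10 members with the highest level, Rpl19 with 407.5 CPM per kilobase. Measured on the longest coding transcript in place of all exons, 7 of those 10 stayed among the 10 with the highest level. At the other end stood Rps4l with 8.30 CPM per kilobase and Rpl39l with 0.577 CPM per kilobase. Rpl3l, a striated muscle paralog of Rpl3, and Rpl10l, a testis paralog of Rpl10, had at most 9 counts and 4 counts in any library, and they were the 2 members left untested by the filter on low counts. The other 81 passed it, and 79 averaged at least 10 CPM.

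All 83 genes together took between 1.938% and 3.87% of a library's counts. The share was 2.49%, 2.41% and 2.77% in tumor CD8 LCL161 libraries and 2.40%, 2.46% and 2.73% in tumor CD8 vehicle libraries. It was 3.36%, 3.87% and 3.63% in spleen CD8 LCL161 libraries and 3.31%, 2.92% and 2.92% in spleen CD8 vehicle libraries. Every spleen CD8 library stood above every tumor CD8 library. The share was 2.52%, 2.30% and 2.75% in tumor CD4 LCL161 libraries and 2.07%, 3.08% and 2.85% in tumor CD4 vehicle libraries. It was 3.34%, 2.32% and 2.12% in spleen CD4 LCL161 libraries and 1.94%, 2.38% and 2.42% in spleen CD4 vehicle libraries. The 4 CD4 groups overlapped, and within spleen CD4 LCL161 the first library was more than 1 percentage point above the third. Rows named as pseudogenes of these genes held a further 0.3428% to 0.7032% of the counts.

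**Figure D1:**
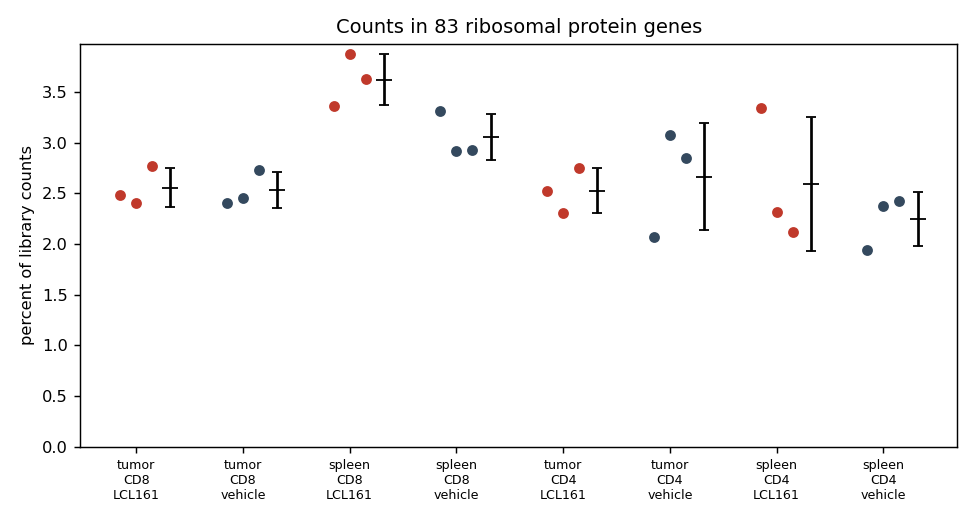
Percent of each library's counts in the 83 ribosomal protein genes (vertical axis, from 0) for the 8 groups, with LCL161 in red and vehicle in blue; dots are libraries and the black mark is the mean ± SD of 3. Spleen CD8 LCL161 averages 3.62% and spleen CD8 vehicle 3.05%, while the other 6 groups average between 2.25% and 2.66%.

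Individual members followed this order of libraries to differing extents. With vehicle, 57 of the 81 tested members had all tumor CD8 libraries below all spleen CD8 libraries, and 2 had them above. With LCL161 these counts were 76 and 1. Of all genes, 22.4% were below and 25.3% above with vehicle, and 15.5% and 15.8% with LCL161. In the map of 76 members by library, spleen CD8 LCL161 was the group with the highest levels for most of them, and the first spleen CD4 vehicle library and the first tumor CD4 vehicle library were low across both subunits. The first spleen CD4 LCL161 library was high for most members, though not for Rpl4. The 2 subunits were not tested against each other. In spleen CD8 against spleen CD4 with vehicle, the median log2 fold change was 0.47 over 49 large-subunit members and 0.53 over 32 small-subunit members. In tumor against spleen CD8 cells with vehicle it was -0.21 over the large-subunit and -0.31 over the small-subunit members, and with LCL161 in spleen CD8 cells 0.23 and 0.21.

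**Figure D2:**
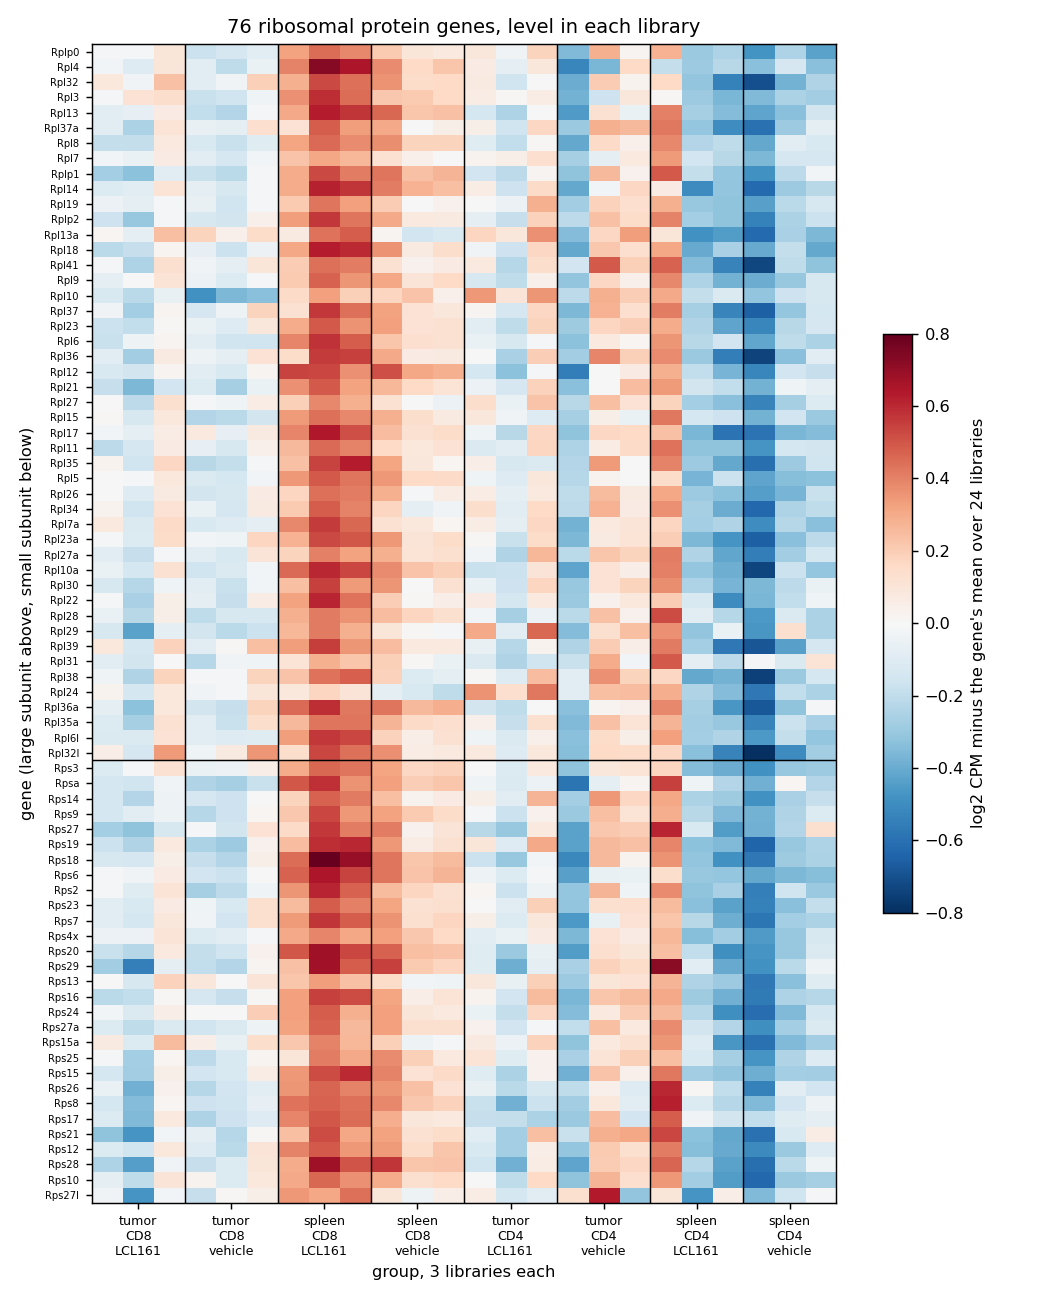
Level of 76 of the 79 members that average at least 10 CPM (rows, large subunit above and small subunit below, each sorted by level) in each of the 24 libraries (columns, 3 per group), as log2 CPM minus the gene's mean over all libraries, with colours limited at 0.8 either way. Red columns mark spleen CD8 LCL161 libraries 2 and 3, while Rpl10 is blue in tumor CD8 vehicle and Rps27l is red in 1 tumor CD4 vehicle library, at 129 CPM.

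The first comparison asks what LCL161 does to these transcripts in each sorted population. In spleen CD8 cells, 79 of the 81 tested members had a positive fitted change with LCL161, against 54.3% of all genes, with a median log2 fold change of 0.23 (1.17-fold) against 0.06 over all genes. No member passed edgeR's test, against 8.28% of all genes (4.10% higher and 4.18% lower). At an unadjusted p under 0.05 there were 8 members, all higher, against 25.0% of all genes in either direction, and DESeq2 called 1 member, Rpl7a. In 40 members all 3 LCL161 libraries stood above all 3 vehicle libraries, against 21.1% of all genes, and in 0 members they stood below, against 17.8%. Rpl7a, a large-subunit protein, had 218, 247 and 230.05 CPM with LCL161 and 182, 178 and 169.5 CPM with vehicle (log2 fold change 0.39 ± 0.13, SE, adjusted p = 0.0689). Rpl6, also of the large subunit, had 335, 382 and 358 CPM with LCL161 and 298, 280.2 and 278 CPM with vehicle (log2 fold change 0.33 ± 0.13, SE, adjusted p = 0.12). Rpl3, which reaches towards the peptidyl transferase centre, had 975, 1142 and 1033 CPM with LCL161 and 881, 875 and 846 CPM with vehicle (log2 fold change 0.28 ± 0.11, SE, adjusted p = 0.121). In these 3 genes the groups did not overlap. The negative fitted changes were those of Rpl39l and Rps4l. Conventional dendritic cell markers moved with this comparison, all 7 detected, with a sum of 347 to 617 CPM with LCL161 and 1720.0 to 1910.0 CPM with vehicle, and the 8 T cell markers summed to 3735 to 4684 CPM with LCL161 and 2688 to 3007 CPM with vehicle. The 5 gamma delta T cell markers summed to 1798 to 2570.2 CPM with LCL161 and 1215 to 1287 CPM with vehicle, and the 5 NK cell markers to 829 to 1819.8 CPM with LCL161 and 377 to 786 CPM with vehicle. Of the 17 marker lists, 4 had sums above and 4 below the vehicle range without overlap. Their part in the result was not tested.

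In spleen CD4 cells the members' median was similar in size, 0.24 (1.18-fold) against 0.02 over all genes, with 79 of 81 positive against 51.8% of all genes, and it rested on 1 library. Without the first LCL161 library the median was -0.01. No member passed edgeR's test, against 0.431% of all genes (0.238% higher and 0.193% lower), with 8 members higher and 1 lower at an unadjusted p under 0.05 (15.9% of all genes in either direction) and 0 called by DESeq2. All LCL161 libraries stood above all vehicle libraries in 1 member, Rps6, against 7.67% of all genes, and below them in 1, Rpl39l, against 6.90%. Rps26, a small-subunit protein near the mRNA exit, shows the pattern, with 288, 191 and 166 CPM with LCL161 and 131, 178 and 171 CPM with vehicle (log2 fold change 0.43 ± 0.16, SE, adjusted p = 0.221). Rpl15 had 279, 189 and 186 CPM with LCL161 and 161, 187 and 169.8 CPM with vehicle (log2 fold change 0.34 ± 0.13, SE, adjusted p = 0.222). In both genes the first LCL161 library was far above the other 2, which lay within or close to the vehicle range. That library had the lowest sum of gamma delta T cell markers in the series, 34.0 CPM, and the highest sum of T cell markers, 8200.4 CPM. Their part in the result was not tested. Rpl39l was the member with the smallest unadjusted p here and is described with its parent gene further on.

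In the tumor the members had no common direction with LCL161. In tumor CD8 cells 38 of 81 were positive, against 50.3% of all genes, the median was -0.01 against 0.00 over all genes, and no member passed edgeR's test, against 0.248% of all genes (0.233% higher and 0.0149% lower). There were 0 members at an unadjusted p under 0.05, against 10.7% of all genes, and DESeq2 called 0. In tumor CD4 cells 33 of 81 were positive, against 48.1% of all genes, with a median of -0.02 against -0.01 over all genes. No member passed edgeR's test there either, against 0.322% of all genes (0.114% higher and 0.208% lower). Rps4l and Rpl39l had an unadjusted p under 0.05, both lower, against 14.1% of all genes in either direction, and DESeq2 called 1 member, Rps4l, lower. In tumor CD8 cells the smallest unadjusted p was that of Rpl10, which joins the large subunit late in its assembly, with 279, 262 and 291 CPM with LCL161 and 217, 237 and 241 CPM with vehicle (log2 fold change 0.26 ± 0.13, SE, adjusted p = 0.495). Rpl3 followed with 753, 822 and 834 CPM with LCL161 and 671, 679 and 740.3 CPM with vehicle (log2 fold change 0.20 ± 0.11, SE, adjusted p = 0.528), and Rpl15 with 209.8, 191 and 221 CPM with LCL161 and 177, 179.9 and 189 CPM with vehicle (log2 fold change 0.19 ± 0.13, SE, adjusted p = 0.651). These were among 6 members whose LCL161 libraries all stood above the vehicle libraries, with Rpl5, Rplp0 and Rpsa, against 11.6% of all genes, and in 0 members they stood below, against 11.9%. In tumor CD4 cells Rpl4 had 1067, 969 and 1086 CPM with LCL161 and 709, 791 and 1136 CPM with vehicle (log2 fold change 0.24 ± 0.13, SE, adjusted p = 0.427), with overlapping groups. There the LCL161 libraries stood above all vehicle libraries in 0 members, against 7.14% of all genes, and below them in 1, Rps4l, against 8.09%. The monocyte or macrophage markers summed to 594 to 917 CPM with LCL161 and 1251 to 1927 CPM with vehicle in tumor CD8. In tumor CD4 they summed to 662 to 1380 CPM with LCL161 and 2396 to 5817 CPM with vehicle. Of the 17 marker lists, 0 had sums above the vehicle range without overlap, while 1 in tumor CD8 and 3 in tumor CD4 lay below it. Their part was not tested.

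When the difference between LCL161 effects was tested itself, 0 members passed in any of 4 contrasts by edgeR or by DESeq2. For the tumor effect minus the spleen effect in CD8 cells, 3 of 81 members were positive, against 45.0% of all genes, and the median was -0.23 against -0.06 over all genes, of which 0.0248% were called, all higher. At an unadjusted p under 0.05 there were 0 members, against 9.04% of all genes. In CD4 cells 4 of 81 were positive, against 45.4% of all genes, and the median was -0.27 against -0.06 over all genes, of which 0.00991% were called, all lower. At an unadjusted p under 0.05 there was 1 member, Rpl28, against 10.2% of all genes. For the CD8 effect minus the CD4 effect in the spleen, 33 of 81 were positive, against 52.9% of all genes, with a median of -0.02 against 0.04 over all genes, of which 0.292% were called (0.0595% higher and 0.233% lower). Rpl39l alone had an unadjusted p under 0.05, against 12.1% of all genes. In the tumor 48 of 81 were positive, against 51.9% of all genes, with a median of 0.01 against 0.02 over all genes, of which 0% were called. There 0 members had an unadjusted p under 0.05, against 5.53% of all genes.

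**Figure D3:**
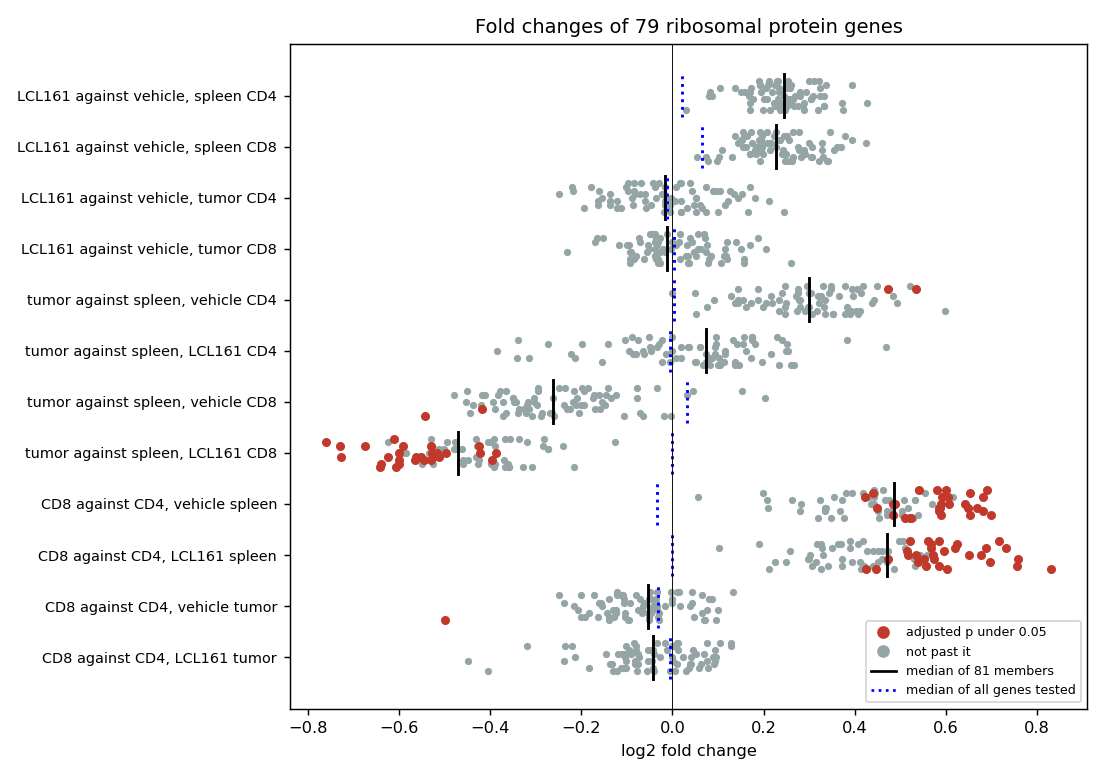
Log2 fold changes (horizontal axis) of the 79 members with at least 10 CPM in 12 comparisons (rows); each dot is a gene, red where its adjusted p is under 0.05, the black line is the median of the 81 tested members and the blue dotted line that of all genes. Members lie to the right of the dotted line for CD8 against CD4 in the spleen, with medians of 0.49 with vehicle and 0.47 with LCL161, and to the left for tumor against spleen in CD8 cells.

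The second comparison sets tumor against spleen within each population, and it shares its vehicle libraries with the comparisons above. In CD8 cells most members had a negative fitted change. With vehicle, 5 of 81 were positive, against 52.7% of all genes, the median log2 fold change was -0.26 (0.834-fold) against 0.03 over all genes, and in 57 members all tumor libraries stood below all spleen libraries, against 22.4% of all genes. Rpl10 and Rps6 passed the test, both lower, against 14.8% of all genes called in either direction, 7.95% higher and 6.86% lower. With an unadjusted p under 0.05 there were 26 members, all lower, against 27.9% of all genes. The count of called members was 1 without the first spleen library, 11 by DESeq2 and 46 when the 6 libraries compared were fitted alone, lower in each case. Rps6, the small-subunit protein phosphorylated by S6 kinase downstream of mTOR, had 381, 376 and 426 CPM in tumor and 571, 498 and 513 CPM in spleen (log2 fold change -0.42 ± 0.12, SE, adjusted p = 0.02). Rpl10 had 217, 237 and 241 CPM in tumor and 342, 356 and 313 CPM in spleen (log2 fold change -0.54 ± 0.13, SE, adjusted p = 0.00854). Neither gene's groups overlapped. Rpl3 came next and did not pass, with 671, 679 and 740.3 CPM in tumor and 881, 875 and 846 CPM in spleen (log2 fold change -0.32 ± 0.11, SE, adjusted p = 0.0582). Rpsa, the laminin receptor homolog of the small subunit, had 669.7, 657 and 698 CPM in tumor and 991, 908 and 922 CPM in spleen (log2 fold change -0.48 ± 0.17, SE, adjusted p = 0.0585). In 2 members, Rpl13a and Rpl24, the tumor libraries all stood above the spleen libraries, against 25.3% of all genes. Rpl13a, known in human monocytes for silencing inflammatory mRNAs, had 409, 371 and 400.4 CPM in tumor and 368, 325 and 333 CPM in spleen (log2 fold change 0.20 ± 0.17, SE, adjusted p = 0.485).

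The same contrast in LCL161 libraries, which shares no library with it, had 1 of 81 members positive, against 49.9% of all genes, a median of -0.47 (0.722-fold) against 0.00 over all genes, and 76 members whose tumor libraries all stood below the spleen libraries, against 15.5% of all genes. There 27 members were lower by the test and 0 higher, against 8.77% of all genes called, 4.92% higher and 3.86% lower. With an unadjusted p under 0.05 there were 69 members, against 24.7% of all genes. Rpl39l was the 1 member whose tumor libraries all stood above the spleen libraries, against 15.8% of all genes. The count was 45 by DESeq2, 48 when the 6 libraries compared were fitted alone, and 0 without the second spleen LCL161 library, with the range of the median over single left-out libraries at -0.54 to -0.42. The largest called falls were small-subunit genes. Rps29 had 244, 203 and 282 CPM in tumor and 349, 471 and 414 CPM in spleen (log2 fold change -0.76 ± 0.22, SE, adjusted p = 0.0418). Rps28 had 108, 94.5 and 126 CPM in tumor and 157, 205 and 181 CPM in spleen (log2 fold change -0.73 ± 0.22, SE, adjusted p = 0.0454). Rps18, which lies in the head of the small subunit, had 389.9, 388 and 439 CPM in tumor and 581, 745 and 689 CPM in spleen (log2 fold change -0.73 ± 0.20, SE, adjusted p = 0.0273). Rps20 had 268, 258 and 319 CPM in tumor and 427, 484 and 437 CPM in spleen (log2 fold change -0.67 ± 0.17, SE, adjusted p = 0.0204). No library overlapped in these 4 genes. Rps6 was the member called in both treatments, with 419, 417 and 445 CPM in tumor and 589, 664 and 617 CPM in spleen (log2 fold change -0.55 ± 0.12, SE, adjusted p = 0.00945). Rpl10 was not called with LCL161 (log2 fold change -0.36 ± 0.13, SE, adjusted p = 0.0988). Markers of other cells moved with these contrasts: the 9 monocyte or macrophage markers, all detected, summed to 1251 to 1927 CPM in tumor and 117 to 179.8 CPM in spleen with vehicle, and to 594 to 917 CPM in tumor and 62.5 to 211 CPM in spleen with LCL161. The 6 naive T cell markers summed to 1538 to 1824 CPM in tumor and 3213 to 3830.4 CPM in spleen with vehicle, and to 1028 to 1757 CPM in tumor and 2499 to 3337 CPM in spleen with LCL161. The 6 B cell markers summed to 30.6 to 58.4 CPM in tumor and 683 to 841 CPM in spleen with vehicle, and to 58.3 to 92.1 CPM in tumor and 553 to 793 CPM in spleen with LCL161. The conventional dendritic cell markers summed to 299.7 to 328 CPM in tumor and 1720.0 to 1910.0 CPM in spleen with vehicle, and to 291 to 384 CPM in tumor and 347 to 617 CPM in spleen with LCL161, where the ranges overlapped. The gamma delta T cell markers summed to 2722 to 3281 CPM in tumor and 1215 to 1287 CPM in spleen with vehicle. The NK cell markers summed to 1143 to 2195 CPM in tumor and 377 to 786 CPM in spleen with vehicle. Of the 17 marker lists, 9 had sums in tumor above and 6 below the spleen range without overlap with vehicle, and 7 above and 3 below with LCL161. Their part was not tested.

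In CD4 cells with vehicle the direction was opposite, with 78 of 81 members positive, against 50.2% of all genes, and a median of 0.30 (1.23-fold) against 0.00 over all genes. Rpl24 and Rpl38 rose, against 16.4% of all genes called in either direction, 9.61% higher and 6.78% lower. With an unadjusted p under 0.05 there were 28 members, all higher, against 31.5% of all genes. Rpl24, a large-subunit protein at the bridge between the subunits, had 98.0, 123 and 123 CPM in tumor and 70.0, 90.6 and 87.1 CPM in spleen (log2 fold change 0.47 ± 0.14, SE, adjusted p = 0.0302). Rpl38, known in mouse for the translation of Hox mRNAs, had 97.0, 133 and 117 CPM in tumor and 61.7, 84.1 and 93.9 CPM in spleen (log2 fold change 0.53 ± 0.18, SE, adjusted p = 0.0454). Rpl41, the smallest ribosomal protein, had 315, 491 and 400.1 CPM in tumor and 212, 305 and 280.2 CPM in spleen and did not pass (log2 fold change 0.60 ± 0.21, SE, adjusted p = 0.0582). In these 3 genes all tumor libraries stood above all spleen libraries, as in 5 members in all, against 17.0% of all genes, and in 0 members they stood below, against 14.1%. The count of calls ran from 0, without the first spleen vehicle library, to 18, without the first tumor vehicle library, and was 0 when the 6 libraries compared were fitted alone. With LCL161 the CD4 median was 0.073 against 0.00 over all genes, with 52 of 81 positive against 49.4% of all genes, and no member passed edgeR's test, against 21.3% of all genes (10.4% higher and 11.0% lower). This median and this count rested on single libraries. Without the first spleen LCL161 library the median was 0.30 with 10 members called higher, and without the third it was -0.08 with 3 called lower. It was also negative without the second spleen LCL161 library (-0.01) and without the third tumor LCL161 library (-0.0067), with 0 called in either. At an unadjusted p under 0.05 there were 5 members, against 34.4% of all genes, and DESeq2 called 2, both higher. Without scaling the median was -0.03 against -0.11 over all genes, with 2 members called, both lower. Tumor libraries stood above all spleen libraries in 2 members, against 16.7% of all genes, and below them in 1, against 16.0%. The monocyte or macrophage markers summed to 2396 to 5817 CPM in tumor CD4 and 61.8 to 191 CPM in spleen CD4 with vehicle. The B cell markers summed to 32.3 to 247 CPM in tumor CD4 and 781 to 1999 CPM in spleen CD4 with vehicle. Of the 17 marker lists, 3 had sums in tumor above and 3 below the spleen range without overlap with vehicle. With LCL161 4 lay above and 6 below. Their part was not tested.

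The third comparison sets CD8 against CD4 cells within each tissue. In the spleen with vehicle, 29 members rose in CD8 relative to CD4 and 0 fell, against 11.4% of all genes called, 5.32% higher and 6.09% lower. Of the 81 tested, 80 were positive, against 45.9% of all genes, and 70 had an unadjusted p under 0.05, against 25.8%, with a median of 0.49 (1.40-fold) against -0.03 over all genes, and in 75 all CD8 libraries stood above all CD4 libraries, against 18.5% of all genes, and in 0 below, against 17.8%. Rpl32l, Rps6 and Rpl14 were among the 4 largest called rises. Rps6 had 571, 498 and 513 CPM in CD8 and 319.6, 331 and 335 CPM in CD4 (log2 fold change 0.68 ± 0.12, SE, adjusted p = 0.00095), the smallest adjusted p of any member in this contrast. Rpl14 had 575, 526 and 513 CPM in CD8 and 281, 354 and 371 CPM in CD4 (log2 fold change 0.68 ± 0.16, SE, adjusted p = 0.00768). Rpl32l, a processed pseudogene copy, had 40.3, 32.6 and 33.0 CPM in CD8 and 17.8, 22.1 and 25.8 CPM in CD4 (log2 fold change 0.69 ± 0.20, SE, adjusted p = 0.0272), and reads may be split between it and Rpl32, which had 1015, 874 and 882 CPM in CD8 and 487, 607 and 669.6 CPM in CD4 (log2 fold change 0.65 ± 0.17, SE, adjusted p = 0.0176). All 3 CD8 libraries stood above all 3 CD4 libraries in each of these genes. Rplp0, often used as a reference transcript, rose as well, with 1524, 1409 and 1391 CPM in CD8 and 946, 1111 and 979 CPM in CD4 (log2 fold change 0.51 ± 0.14, SE, adjusted p = 0.0258). Rps18 had 573, 496 and 508 CPM in CD8 and 287, 349 and 357 CPM in CD4 (log2 fold change 0.67 ± 0.20, SE, adjusted p = 0.0323). Rpl22, which binds RNA and is known in mouse for its need in alpha beta T cell development, had 145, 127 and 131 CPM in CD8 and 98.1, 110.2 and 123 CPM in CD4 and did not pass (log2 fold change 0.28 ± 0.15, SE, adjusted p = 0.262). Rps27, a zinc finger protein of the small subunit, also did not pass, with 711, 549 and 575 CPM in CD8 and 411, 455 and 587 CPM in CD4 (log2 fold change 0.34 ± 0.22, SE, adjusted p = 0.379), and its groups overlapped. Leaving out single libraries gave 5 to 23 calls, the fewest without the first CD4 vehicle library, and a median of 0.39 to 0.55. DESeq2 called 52 members and a fit without scaling 17, all higher.

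The LCL161 spleen libraries gave 32 members higher in CD8 and 0 lower, against 17.4% of all genes called, 7.95% higher and 9.48% lower. All 81 were positive, against 49.9% of all genes, and 64 had an unadjusted p under 0.05, against 31.9%, with a median of 0.47 (1.39-fold) against 0.00 over all genes. Of these 32 members, 23 were among the 29 called with vehicle. All 3 CD8 libraries stood above all 3 CD4 libraries in 31 members, against 13.8% of all genes, and in 0 below, against 15.2%. When the 6 libraries compared were fitted alone, 2 members were called. Single left-out libraries moved the count between 12, without the third CD4 LCL161 library, and 77, without the first. The largest called rises, after those of the low-count Rpl39l and Rps4l, were those of Rpl4 and Rps18. Rpl4, which lines the peptide exit tunnel, had 1338, 1685 and 1595 CPM in CD8 and 892, 832 and 871 CPM in CD4 (log2 fold change 0.83 ± 0.14, SE, adjusted p = 0.000383). Rps18 had 581, 745 and 689 CPM in CD8 and 545, 342 and 305 CPM in CD4 (log2 fold change 0.76 ± 0.20, SE, adjusted p = 0.012). The conventional dendritic cell markers summed to 1720.0 to 1910.0 CPM in CD8 and 98.7 to 269.5 CPM in CD4 with vehicle, and to 347 to 617 CPM in CD8 and 79.5 to 167 CPM in CD4 with LCL161. Gamma delta T cell markers summed to 1215 to 1287 CPM in CD8 and 242 to 1516 CPM in CD4 with vehicle, and to 1798 to 2570.2 CPM in CD8 and 34.0 to 127 CPM in CD4 with LCL161. Naive T cell markers summed to 3213 to 3830.4 CPM in CD8 and 2069 to 2819.7 CPM in CD4 with vehicle, and NK cell markers to 377 to 786 CPM in CD8 and 89.3 to 330.3 CPM in CD4. The 8 T cell markers went the other way, with 2688 to 3007 CPM in CD8 and 3759 to 6175 CPM in CD4 with vehicle. With LCL161 they summed to 3735 to 4684 CPM in CD8 and 5904 to 8200 CPM in CD4. Of the 17 marker lists, 4 had sums in CD8 above and 3 below the CD4 range without overlap with vehicle. With LCL161 5 lay above and 3 below. The part of these cells in the result was not tested.

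In the tumor with vehicle 19 of 81 members were positive, against 46.5% of all genes, and the median was -0.05, against -0.03 over all genes. Rpl10 alone passed, lower in CD8, against 4.07% of all genes called, 1.70% higher and 2.37% lower. It was also the 1 member whose CD8 libraries all stood below the CD4 libraries, against 13.8% of all genes, and in 0 members they stood above, against 12.0%. With an unadjusted p under 0.05 there were 2 members, 1 in each direction, against 19.3% of all genes. Rpl10 had 217, 237 and 241 CPM in CD8 and 263, 370.5 and 348 CPM in CD4 (log2 fold change -0.50 ± 0.13, SE, adjusted p = 0.038), and the groups did not overlap. The call was lost when the 6 libraries compared were fitted alone and in 5 of the 6 fits that left out 1 library. With LCL161 the median was -0.04 against -0.01 over all genes (0.02 against 0.05 without scaling), and Rpl39l and Rps4l were called higher in CD8, against 2.87% of all genes called, 1.43% higher and 1.44% lower. Each of these calls was lost in 5 of the 6 fits that left out 1 library, 1 member was called when the 6 libraries compared were fitted alone, and the median was positive in 2 of those 6 fits. Of the 81 members 31 were positive, against 48.6% of all genes, and 5 had an unadjusted p under 0.05, against 16.3%. The CD8 libraries stood above all CD4 libraries in 2 members, against 11.0% of all genes, and below them in 3, against 11.9%. Rpl10 was not called with LCL161, with 279, 262 and 291 CPM in CD8 and 387, 327 and 388 CPM in CD4 (log2 fold change -0.41 ± 0.13, SE, adjusted p = 0.11), and its groups again did not overlap. With vehicle the monocyte or macrophage markers summed to 1251 to 1927 CPM in tumor CD8 and 2396 to 5817 CPM in tumor CD4. With LCL161 these ranges overlapped, at 594 to 917 CPM in CD8 and 662 to 1380 CPM in CD4. Of the 17 marker lists, 4 had sums in CD8 above and 3 below the CD4 range without overlap with vehicle. With LCL161 5 lay above and 4 below. The part of these cells in the result was not tested.

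The tumor-to-spleen change was then compared between the populations, where few members were called. This difference, a comparison added after the data were seen, was the CD8 fold change minus the CD4 fold change. With vehicle 1 of 81 members was positive, against 51.4% of all genes, and the median was -0.56 against 0.02 over all genes. Rpl10, Rpl5 and Rps6 passed the test, all negative, against 3.29% of all genes called, 1.13% positive and 2.16% negative. With an unadjusted p under 0.05 there were 53 members, all negative, against 18.7% of all genes. For Rpl10 the difference was -0.85 (adjusted p = 0.0176). Its level was lowest in the tumor CD8 vehicle group, at 231 ± 12.7 CPM, and 337 ± 21.8 CPM in spleen CD8 vehicle, whereas tumor CD4 vehicle had 327 ± 56.8 CPM and spleen CD4 vehicle 265 ± 18.1 CPM (mean ± SD, n = 3 each). For Rpl5, which with Rpl11 and 5S RNA can bind Mdm2, the difference was -0.61 (adjusted p = 0.0373). It had 169.7, 167 and 181 CPM in tumor CD8 and 234, 206 and 205 CPM in spleen CD8, and 157, 187 and 184 CPM in tumor CD4 and 137, 145 and 147 CPM in spleen CD4. For Rps6 the difference was -0.62 (adjusted p = 0.0471), with 395 ± 27.5 CPM in tumor CD8 and 527 ± 38.5 CPM in spleen CD8, and 377 ± 54.3 CPM in tumor CD4 and 329 ± 8.21 CPM in spleen CD4. Single left-out libraries moved the count from 0, without the first spleen CD4 vehicle library, to 16, without the first tumor CD4 vehicle library, and was 13 by DESeq2 and 1 without scaling. In LCL161 libraries 1 of 81 was positive, against 48.9% of all genes, with a median of -0.52 against -0.02 over all genes. Rpl3, Rpl4 and Rps6 were among 4 members that passed, all negative, against 3.29% of all genes called, 2.27% positive and 1.03% negative, and 40 members had an unadjusted p under 0.05, against 19.7% of all genes. For Rpl4 this difference was -0.87 (adjusted p = 0.0186). Rpl4 averaged 1012 ± 71.2 CPM in tumor CD8 and 1539 ± 180.3 CPM in spleen CD8, and 1041 ± 62.8 CPM in tumor CD4 and 865 ± 30.6 CPM in spleen CD4. Here the count ran from 0, in 3 of the 12 fits that left out 1 library, to 52, without the first spleen CD4 LCL161 library, and was 14 by DESeq2 and 1 without scaling.

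**Figure D4:**
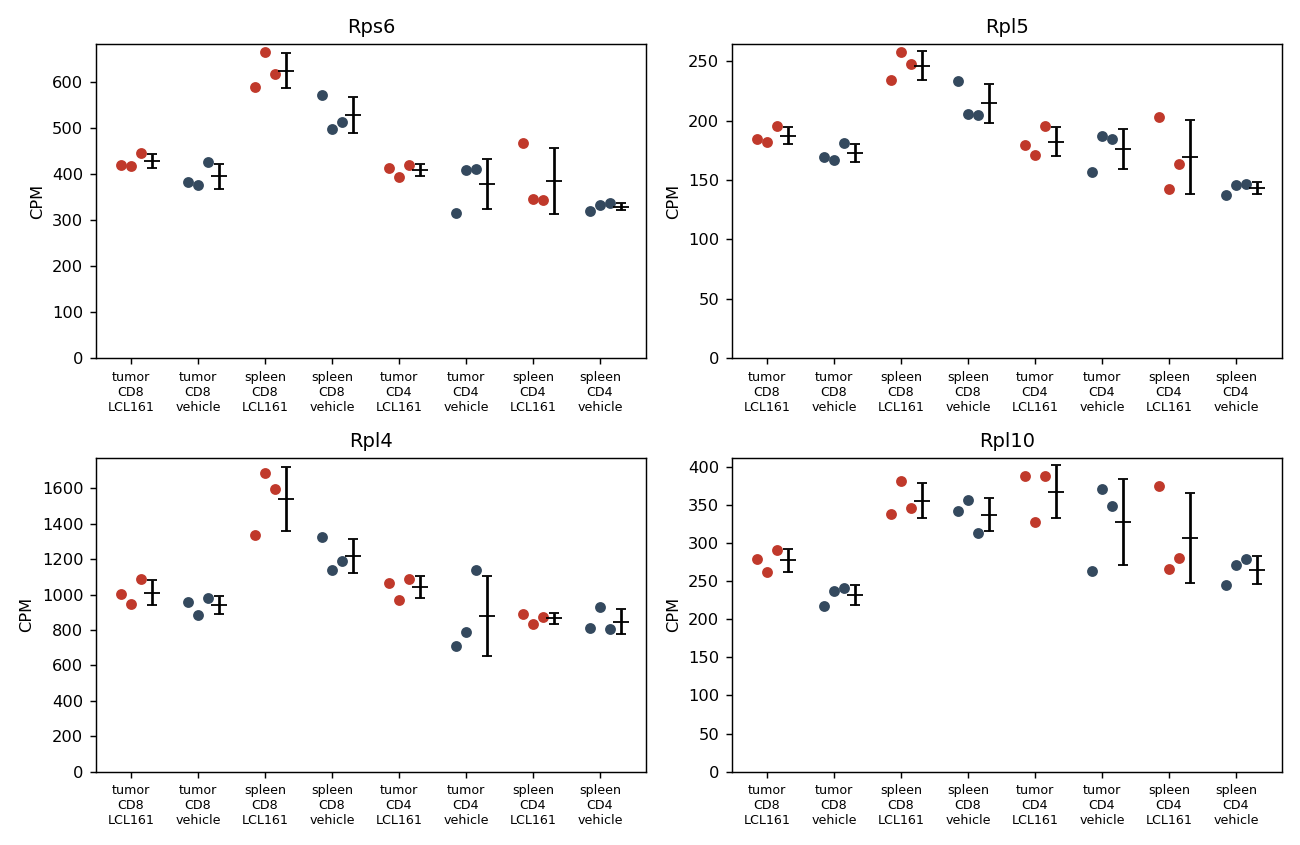
CPM (vertical axes, from 0) of Rps6, Rpl5, Rpl4 and Rpl10 in the 8 groups, LCL161 in red and vehicle in blue; dots are libraries and black marks the mean ± SD of 3. Rps6, Rpl5 and Rpl4 are highest in the spleen CD8 groups, while Rpl10 is lowest in tumor CD8 vehicle, at 217 to 241 CPM.

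Paralog copies had low levels and are given beside their parent genes. Rpl39l, a paralog of Rpl39 known in mouse for its role in male germ cells, was near the limit of detection. It had 0, 1 and 0 counts in spleen CD4 LCL161 libraries and 7, 6 and 21 counts in spleen CD4 vehicle libraries (adjusted p = 0.0714). In tumor CD4 it had 3, 0 and 0 counts with LCL161 and 9, 1 and 8 counts with vehicle (adjusted p = 0.315). The CD8 groups ranged from 6 to 34 counts. In LCL161 libraries it was called higher in CD8 than in CD4 in both tissues, in the spleen with 10, 8 and 12 counts in CD8 and 0, 1 and 0 counts in CD4 (adjusted p = 0.00969), and in the tumor with 18, 16 and 13 counts in CD8 and 3, 0 and 0 counts in CD4 (adjusted p = 0.0326). The spleen call was lost in 0 of the 6 fits that left out 1 library and the tumor call in 5 of 6. No fold is given at these counts, and a count of 0 allows up to 0.167 CPM in the CD4 LCL161 libraries. The parent gene Rpl39, a small protein of the exit tunnel, had 148, 91.4 and 74.5 CPM in spleen CD4 LCL161 libraries and 68.8, 81.7 and 101 CPM in the vehicle ones, with overlapping groups (log2 fold change 0.32 ± 0.20, SE, adjusted p = 0.421).

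Rps4l, a retrotransposed copy related to the X-linked Rps4x, was likewise called higher in CD8 than in CD4 with LCL161. In the tumor it had 10.5, 9.93 and 4.996 CPM in CD8 LCL161 and 2.06, 1.89 and 1.16 CPM in CD4 LCL161 (log2 fold change 2.31 ± 0.57, SE, adjusted p = 0.0328). In the spleen it had 4.48, 16.5 and 12.2 CPM in CD8 LCL161 and 0.914, 5.32 and 3.72 CPM in CD4 LCL161 (log2 fold change 1.73 ± 0.54, SE, adjusted p = 0.0349). The spleen groups overlapped and the tumor groups did not. The spleen call was lost in 4 of the 6 fits that left out 1 library and the tumor call in 5 of 6. With LCL161 in tumor CD4 it was below every vehicle library, at 3.09, 4.73 and 9.51 CPM with vehicle, without passing edgeR's test (log2 fold change -1.76 ± 0.56, SE, adjusted p = 0.157). Rps4x had 299, 305 and 332 CPM with LCL161 and 247, 344 and 332 CPM with vehicle in the same cells (log2 fold change 0.02 ± 0.14, SE, adjusted p = 0.974). Reads of near-identical copies could be divided between these rows, which was not tested. Of the members' non-zero values 95.66% were not whole, against 52.69% over all genes. These shares were not taken at like levels, as 81 of the 83 members passed the filter on low counts, against 20174 of 55025 rows. The p53 target Rps27l had 87.1, 75.8 and 78.9 CPM with LCL161 and 91.1, 129 and 67.1 CPM with vehicle in tumor CD4 cells (log2 fold change -0.25 ± 0.19, SE, adjusted p = 0.595), and its highest value in any library, 129 CPM, was in 1 of the vehicle libraries.

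**Figure D5:**
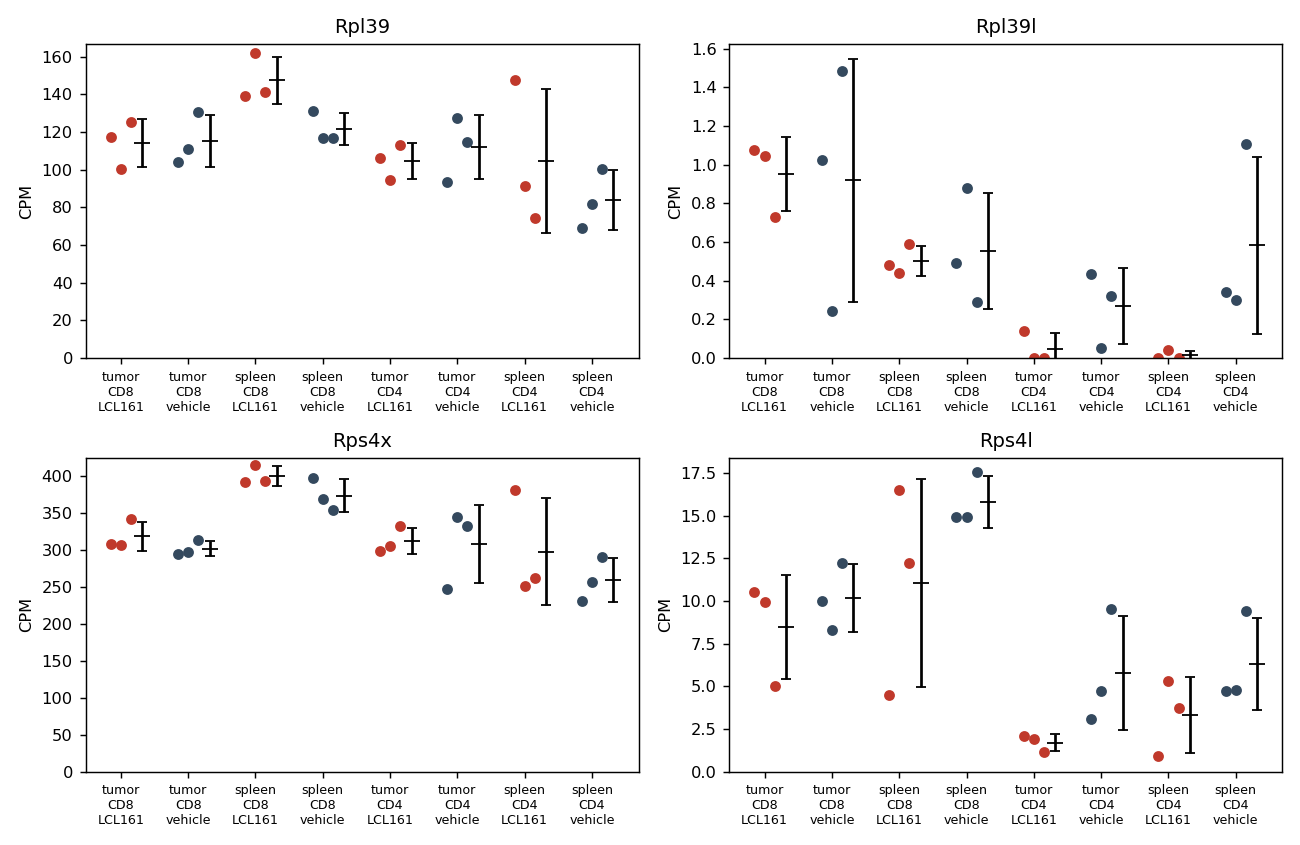
CPM (vertical axes, from 0, each with its own range) of Rpl39 and its paralog Rpl39l, and of Rps4x and its copy Rps4l, in the 8 groups, with LCL161 in red and vehicle in blue; dots are libraries and black marks the mean ± SD of 3. Rpl39l and Rps4l are low in the CD4 LCL161 groups, Rps4l with 1.16 to 2.06 CPM in tumor CD4 LCL161, where their parent genes overlap with vehicle.

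Other genes of the translation pathway were read as lists (values are mean ± SD and log2 fold change ± SE, n = 3 per group), with 0 called in any of them for LCL161 against vehicle in the tumor. Of 8 ribosomal protein genes outside the symbol pattern, Rps3a1 alone was called, higher in CD8 than CD4 in the vehicle spleen, against 5.32% of all genes (663 ± 52.8 CPM in spleen CD8 vehicle against 495 ± 36.2 CPM in spleen CD4 vehicle, log2 fold change 0.42 ± 0.13, adjusted p = 0.0484). Of 13 elongation factors and other transcripts with a 5' oligopyrimidine tract, 3 rose with LCL161 in spleen CD8 cells and 0 fell, against 4.10% of all genes higher and 4.18% lower, among them Btf3, a nascent chain factor (285 ± 35.4 CPM in spleen CD8 LCL161 against 221 ± 6.62 CPM in spleen CD8 vehicle, log2 fold change 0.37 ± 0.11, adjusted p = 0.0372). Its partner Naca rose too (294 ± 9.74 CPM in spleen CD8 LCL161 against 239 ± 15.1 CPM in spleen CD8 vehicle, log2 fold change 0.30 ± 0.09, adjusted p = 0.0395). In CD8 against CD4 of the vehicle spleen 3 of the 13 rose and 0 fell, against 5.32% of all genes higher and 6.09% lower, led by the elongation factor subunit Eef1b2 (238 ± 12.5 CPM in spleen CD8 vehicle against 118 ± 16.3 CPM in spleen CD4 vehicle, log2 fold change 1.00 ± 0.16, adjusted p = 0.000388) and by Eef1a1 (3928 ± 177 CPM in spleen CD8 vehicle against 2981 ± 128 CPM in spleen CD4 vehicle, log2 fold change 0.40 ± 0.10, adjusted p = 0.012). Eef1b2 was also the single gene of that list lower in tumor than in spleen CD8 cells, against 6.86% of all genes (136 ± 11.3 CPM in tumor CD8 vehicle against 238 ± 12.5 CPM in spleen CD8 vehicle, log2 fold change -0.80 ± 0.16, adjusted p = 0.00174). Of 30 initiation factors, 4 rose with LCL161 in spleen CD8 cells and 0 fell, against 4.10% of all genes higher and 4.18% lower, led by Eif3d and Eif2s2. In spleen CD4 cells 1 of the 30, the helicase Eif4a1, rose, against 0.238% of all genes (423 ± 57.9 CPM in spleen CD4 LCL161 against 289.8 ± 19.4 CPM in spleen CD4 vehicle, log2 fold change 0.55 ± 0.12, adjusted p = 0.0448). In tumor against spleen CD4 cells with vehicle 2 elongation factors and related transcripts and 4 initiation factors were higher and 0 lower, against 9.61% of all genes higher and 6.78% lower.

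Of 43 ribosome biogenesis genes, 13 were higher in CD8 than in CD4 cells of the vehicle spleen and 13 were lower in tumor than in spleen CD8 cells, with 0 called the other way in either contrast. Of all genes, 5.32% were higher and 6.09% lower in the first contrast, and 7.95% higher and 6.86% lower in the second. The nucleolar chaperone Npm1 led the first (361 ± 6.88 CPM in spleen CD8 vehicle against 225 ± 18.2 CPM in spleen CD4 vehicle, log2 fold change 0.68 ± 0.11, adjusted p = 0.000494), and the rRNA methyltransferase Fbl the second (77.2 ± 7.15 CPM in tumor CD8 vehicle against 122 ± 9.26 CPM in spleen CD8 vehicle, log2 fold change -0.65 ± 0.12, adjusted p = 0.0011). Both contrasts use the spleen CD8 vehicle libraries. With LCL161 in spleen CD8 cells 5 of the 43 rose, led by Nop58 (114 ± 3.83 CPM in spleen CD8 LCL161 against 76.6 ± 0.887 CPM in spleen CD8 vehicle, log2 fold change 0.58 ± 0.13, adjusted p = 0.0106), and 0 fell, against 4.10% of all genes higher and 4.18% lower. Among 13 regulators of ribosomal protein synthesis, Myc rose with LCL161 in spleen CD4 cells (119.9 ± 12.8 CPM in spleen CD4 LCL161 against 51.3 ± 9.67 CPM in spleen CD4 vehicle, log2 fold change 1.22 ± 0.25, adjusted p = 0.0369) and was higher in CD8 than in CD4 cells of the vehicle spleen (148 ± 14.2 CPM in spleen CD8 vehicle against 51.3 ± 9.67 CPM in spleen CD4 vehicle, log2 fold change 1.53 ± 0.25, adjusted p = 0.000548). Mtor fell with LCL161 in spleen CD8 cells (21.2 ± 2.49 CPM in spleen CD8 LCL161 against 47.2 ± 1.30 CPM in spleen CD8 vehicle, log2 fold change -1.16 ± 0.22, adjusted p = 0.00462), as did Tsc1 and Tsc2, which restrain mTOR, against 4.18% of all genes lower. A list of 8 genes held Trp53, which encodes p53, and p53 targets. Of these, Sesn2 fell and Trp53 rose with LCL161 in spleen CD8 cells, against 4.18% of all genes lower and 4.10% higher. Cdkn1a was higher in tumor than in spleen CD8 cells, against 7.95% of all genes (41.9 ± 7.04 CPM in tumor CD8 vehicle against 17.5 ± 2.80 CPM in spleen CD8 vehicle, log2 fold change 1.26 ± 0.28, adjusted p = 0.00434). Of 78 mitochondrial ribosomal protein genes, 6 rose with LCL161 in spleen CD8 cells and 0 fell, against 4.10% of all genes higher and 4.18% lower, with a median of 0.28. In tumor against spleen with vehicle, 7 were higher and 0 lower in CD4 cells, against 9.61% of all genes higher and 6.78% lower, and 3 were higher and 4 lower in CD8 cells, against 7.95% higher and 6.86% lower. In CD8 against CD4 of the vehicle spleen 2 rose and 0 fell, against 5.32% of all genes higher and 6.09% lower, with a median of 0.06 against 0.49 for the cytosolic members. The marker sums of other cells given above moved with these spleen CD8 contrasts too, and their part was not tested.

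Transcript length was also set against the fold changes. Over the 79 members, Spearman's rho between the log2 fold change with LCL161 and the length of the longest coding transcript was 0.389 in tumor CD8 and 0.429 in tumor CD4 cells, against -0.269 and 0.025 over 5721 other coding genes. In the spleen it was 0.062 in CD8 and -0.11 in CD4 cells, against -0.455 and -0.444 over those genes. The 27 shortest members, up to 785 bases, had a median of -0.08 in tumor CD4 cells, and the 27 longest, from 1106 bases, a median of 0.02. Genes share their libraries, so these values describe the libraries and carry no test.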

How the data were processed

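Per the labels' protocols, CD45+CD4+ and CD45+CD8+ cells were sorted and total RNA was extracted. Per the submitters' processing notes, cutadapt, STAR 2.7.3a and the GRCm38 build were used. The tool, annotation and strand used for counting are not stated there or in the labels. Overlapping and antisense genes thus cannot be told apart. The authors deposited expected counts per gene (52.69% of non-zero values have a fraction), which were rounded here. All 24 columns were matched to samples, and 0 columns belong to no sample.

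Genes were kept by filterByExpr (minimum count 10), scaled by TMM (factors 0.939 to 1.05) and fitted with edgeR 4.0.16 in R 4.3.3, with robust quasi-likelihood tests, 1 mean for each group, 16 residual degrees of freedom and a common coefficient of variation of 0.326. Benjamini-Hochberg adjustment ran over 20174 genes within each comparison, with a threshold of 0.05. DESeq2 1.42.0, 2 other scalings, scaling without the members, 2 other filters, only the libraries compared, a replicate block, pseudogene rows added to their parents, LCL161 libraries in place of vehicle and each library left out were alternatives. Scripts were tested on simulated data. No 2 replicates agreed within counting noise, and no library was left out. Lengths are from GENCODE M21, promoters from RefSeq. Intervals and floors (3 counts) cover counting error only.

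The members and lists were chosen with earlier results of these data known, and the choices support nothing by themselves. Named genes are up to 4 rises and 4 falls per comparison among called members, or the 3 members of smallest unadjusted p where fewer than 3 passed, plus a panel of 17 members and up to 2 genes per list. A few members that this rule names are not reported here. Other genes named beside them were chosen after their values were seen. Figures were drawn in matplotlib 3.10.9, and sequences and lengths were read in Python 3.11.15.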

Additional observations from a re-analysis of the deposited data

Results flagged for a closer look

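The tumor-to-spleen change differed between CD8 and CD4 cells in Rpl10, Rpl5 and Rps6 with vehicle and in Rpl3, Rpl4 and Rps6, among others, with LCL161, by a test of the difference itself (edgeR). These were 3 members with vehicle and 3 of the 4 called with LCL161, out of 81 tested, against 3.29% of all genes called in each treatment. The count with vehicle is close to that share. This comparison was added after the data were seen. With vehicle, the CD8 fold change minus the CD4 fold change was -0.85 for Rpl10 (adjusted p = 0.0176), -0.61 for Rpl5 (adjusted p = 0.0373) and -0.62 for Rps6 (adjusted p = 0.0471). With LCL161 it was -0.64 for Rpl3 (adjusted p = 0.0302), -0.87 for Rpl4 (adjusted p = 0.0186) and -0.63 for Rps6 (adjusted p = 0.0414). Rps6 is on both lists, and the treatments share no library. Rpl3 had 753, 822 and 834 CPM in tumor CD8 LCL161 and 975, 1142 and 1033 CPM in spleen CD8 LCL161, and 788, 764 and 789 CPM in tumor CD4 LCL161 and 761, 619 and 588 CPM in spleen CD4 LCL161. The call of Rps6 with vehicle was lost in 11 of the 12 fits that left out 1 library, that of Rpl5 in 10 and that of Rpl10 in 3. With LCL161 the call of Rps6 was lost in 10 of 12 such fits, that of Rpl3 in 7 and that of Rpl4 in 3, and 0 members were called in 3 of the 12.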

How the results depend on the processing

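None of 9 member medians, those of LCL161 against vehicle and of the vehicle comparisons, changed sign under the other scalings, filters and tools. In LCL161 libraries the median for tumor against spleen in CD4 went from 0.073 to -0.03 without scaling. For CD8 against CD4 in tumor it went from -0.04 to 0.02. Of 122 counts of called members under alternatives, 99 stayed within 1.5 times the reported count. A reported 0 that stayed 0 was included in these 99. LCL161 against vehicle and the differences between LCL161 effects all had 0 reported. The 99 therefore says little about the comparisons that had members called. For LCL161 against vehicle, DESeq2 and a fit of only the libraries compared each called 1 member in spleen CD8, and DESeq2 called 1 in tumor CD4. For tumor against spleen in vehicle CD4, against 2 reported, the count was 0 without scaling, 1 when scaled without the members, 1 without a filter, 6 by DESeq2, 0 with only the libraries compared and 0 in LCL161 libraries, where the median was 0.073. For tumor against spleen in vehicle CD8, against 2, it was 8 with RLE scaling, 4 when scaled without the members, 7 with a 5 CPM filter, 11 by DESeq2, 46 with only the libraries compared and 27 in LCL161 libraries, where the median was -0.47. For CD8 against CD4 in vehicle spleen, against 29, it was 17 without scaling, 52 by DESeq2 and 46 with only the libraries compared. In vehicle tumor, against 1, it was 0 with only the libraries compared and 2, both higher, in LCL161 libraries. For the difference of tumor against spleen, against 3, it was 1 without scaling and 13 by DESeq2. The causes were not tested. With single libraries left out, counts ran from 0 to 1 (spleen CD4), 0 to 0 (spleen CD8), 0 to 1 (tumor CD4) and 0 to 0 (tumor CD8) for LCL161, from 0 to 18 (CD4) and 1 to 2 (CD8) for tumor against spleen, from 5 to 23 (spleen) and 0 to 1 (tumor) for CD8 against CD4, and from 0 to 16 for the difference. Left-out libraries gave a median of the other sign for LCL161 in spleen CD4 (-0.01), tumor CD4 (0.08) and tumor CD8 (0.06), and for CD8 against CD4 in tumor (0.03). In LCL161 libraries they did so for tumor against spleen in CD4 in 3 of 6 fits (-0.08 to 0.30 over the 6, with 0 to 10 called) and for CD8 against CD4 in tumor in 2 of 6 (-0.10 to 0.03, with 0 to 1 called). In LCL161 libraries the block moved the count for tumor against spleen in CD8 to 17 and that for the difference to 2. Same-numbered libraries correlated at -0.168 to 0.0986, which does not settle whether the replicate numbers pair them. Each library correlated best with its own number for tumor against spleen CD8 and for CD8 against CD4 spleen, both with vehicle. In the other comparisons this held for some libraries or none. With a replicate block the Rpl10 call in the tumor was lost (0 members called), and 25 members were called for CD8 against CD4 in spleen.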
